A study of Homo sapiens with 4 samples.

Results

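In THP1 cells depleted of MLL-AF9 the transcript of CD14 was higher than in controls, whereas no probe for a Toll-like receptor, for LY96 or for MYD88 passed the test. The genes described are CD14, its partner LY96, the adaptor MYD88 and the receptors TLR1, TLR2, TLR4, TLR5, TLR6, TLR7 and TLR8. They were found by gene name among the probes of the array, with control spots left out and a quality weight above 0 required on all 4 arrays. Of the 10 genes, 8 had such a probe, and 9 of the 12 probes named for the 10 genes were kept, out of 26219 probes and 17938 named genes in all. The probes not kept were the probe for TLR7, the probe for TLR8 and 1 of the probes for TLR5.

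THP1 is a line of acute monocytic leukemia cells in which the start of MLL is joined to the end of AF9. Knockdown arrays held RNA of cells treated with siRNA-A or siRNA-B, each directed at the fusion point, and control arrays held RNA of cells treated with the non-targeting control siRNA-1 or control siRNA-2. Sample titles give no letters and name the knockdown siRNAs siRNA3, here taken as siRNA-A, and siRNA4, here taken as siRNA-B. All cells received siRNA on days 0, 3 and 6, were moved on day 6 from medium with 10% serum to medium with 0.5% serum, and were harvested on day 8. Each of the 4 single-colour arrays measured a pool of 5 experiments, and the 2 arrays of a group differ in the siRNA used.

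CD14 is a surface protein of monocytes that hands lipopolysaccharide, a component of the wall of Gram-negative bacteria, to the complex of TLR4 and LY96 (also called MD-2). Toll-like receptors recognise microbial lipids, proteins or nucleic acids, either at the cell surface (TLR1, TLR2, TLR4, TLR5 and TLR6) or in endosomes (TLR7 and TLR8), and most of them signal through the adaptor MYD88 to the transcription factor NF-kB. CD14 is widely used as a marker of mature monocytes and is low or absent on many immature myeloid blasts.

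The probes are oligonucleotides of 60 bases. The first 30 bases are printed 5′ to 3′, as the scanner tables give them, for the gene that changed (CD14), for the receptor whose knockdown arrays both lay above the controls (TLR6), for its close relative TLR1 and for the pair of TLR4 probes that ordered the arrays differently.
CD14 (A_33_P3284508, chr5:140011318-140011377, minus strand): gttgaggacttttcgaccaattcaaccctt
TLR6 (A_23_P256561, chr4:38828533-38828592, minus strand): aagacttaacaaaaacaatgtttcatctgg
TLR1 (A_23_P10873, chr4:38798013-38798072, minus strand): atattcctcctgttgatattgctgcttttg
TLR4 (A_24_P69538, chr9:120476856-120476915, plus strand): atggtaaatcatggaatccagaaggaacag
TLR4 (A_32_P66881, chr9:120479236-120479295, plus strand): ttactgagtgtttcagagtgtgtttggttt
Positions refer to the genome build hg19, which the array annotation uses. Whether a probe lies in a coding or an untranslated part of its gene was not analysed here. TLR1 and TLR6 are similar genes that lie near each other on chromosome 4, and their probes shared no run of bases longer than 7. Over the 55 pairs of 11 probes, LY96 left out, the longest shared run on either strand was 9 bases.

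The probes for MLLT3, the gene name of AF9, were lower after knockdown. Probe A_23_P216693 read 6.87 with siRNA-B, 6.82 with siRNA-A, 7.59 with control siRNA-1 and 7.61 with control siRNA-2 on the log2 intensity scale, a log2 fold change of -0.76 (SE 0.11, adjusted p = 0.0639 in limma), and probe A_24_P192627 changed by -0.63 (SE 0.12, adjusted p = 0.182). Of 4 probes for MLL, the other partner, A_33_P3390570 had a log2 fold change of -0.41 (adjusted p = 0.403 in limma, uncalled), and the others had -0.08, -0.03 and 0.05. A probe in a part of either gene that the fusion keeps can detect wildtype transcript as well as the fusion, and any other probe wildtype transcript only. Of the 4 MLL probes, A_33_P3390570 (chr11:118348856-118348915) lies nearest to the start of the gene. Which of the 4 lie in the kept part was not analysed. Median log2 intensity was between 8.56 and 8.65 on the 4 arrays, and between 70.0% and 74.3% of spots were well above background. All arrays sat on 1 slide, the knockdown arrays at its positions 1 and 2 and the control arrays at 3 and 4. Treatment and slide position therefore cannot be told apart. Of 10 markers of monocytic cells, 8 were well above background on all 4 arrays (AIF1, CD33, CD4, CD68, CSF1R, ITGAM, MPO and SPI1), while LYZ and FCGR1A had no probe in the values analysed here.

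CD14 was 2.07-fold higher after knockdown. Its log2 intensity was 8.71 with siRNA-B and 8.39 with siRNA-A, against 7.52 with control siRNA-1 and 7.47 with control siRNA-2. Both knockdown arrays lay above both control arrays, which were close to each other. The mean was 8.55 ± 0.223 (SD, n = 2) in knockdown and 7.50 ± 0.0367 (SD, n = 2) in control treatments, a log2 fold change of 1.05 with a standard error of 0.13 and a 95% interval of 0.75 to 1.35. It was called at an unadjusted p of 2.98e-05 in limma, where a probe counted as called at a p under 0.005, and its Benjamini-Hochberg adjusted p over all probes was 0.0355. Relative to the control mean CD14 was higher by 0.89 with siRNA-A and by 1.21 with siRNA-B. Among all probes it had rank 16 by size of the rise and rank 22 by p. Since RNA was measured in bulk, a larger share of cells with CD14 and more CD14 RNA per cell cannot be told apart.

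The call of CD14 was the single call among the 9 probes. Over all probes 1.32% were called in either direction, 0.584% were called as higher, and 0.118% had an adjusted p under 0.05, which among the 9 probes CD14 alone had. The rise of CD14 was called under 12 of 13 other ways of processing, with log2 fold changes between 0.89 and 1.21. These were 6 other scales or normalizations of the signal, a fit without weights, a filter on dim probes, a variance model with an intensity trend, and 4 fits that each left out 1 array. The exception left out control siRNA-2, where the log2 fold change was 1.03 and the unadjusted p of limma, in a fit across all probes, was 0.00585. The adjusted p was under 0.05 in 3 of the 13. It was between 0.15 and 0.544 under other scales and normalizations of the signal and between 0.482 and 1 when an array was left out. The degrees of freedom of the test fell from 8.61 to between 3.79 and 6.27 under the former and to 3.3 or 3.89 under the latter.

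Of the cell type markers, 0 were called in limma. The summed log2 intensity of the monocytic markers was between 15.42 and 15.61 in knockdown and between 15.61 and 15.64 in control arrays, and 0 of them had an unadjusted p under 0.05. That of 5 erythroid and megakaryocytic markers was between 8.96 and 8.97 in knockdown and between 8.69 and 8.71 in control arrays, so that the knockdown arrays were both higher, with 2 genes at an unadjusted p under 0.05 and with HBB the one of the 5 not well above background on all arrays. The sums of T cell markers (8.21 to 8.33 against 8.24 to 8.26), of B cell markers (11.1 to 11.2 against 11.12 to 11.17) and of epithelial and stromal markers (12.63 to 12.93 against 12.7 to 12.94) overlapped between the groups, with 0, 0 and 1 gene at that p. Most of the epithelial and stromal sum was PECAM1, which monocytes express too, and most of the B cell sum was CD79A. Of the epithelial markers EPCAM, KRT19 and CDH1, none was well above background on all arrays. The part of these levels in the rise of CD14 was not tested.

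**Figure D1:**
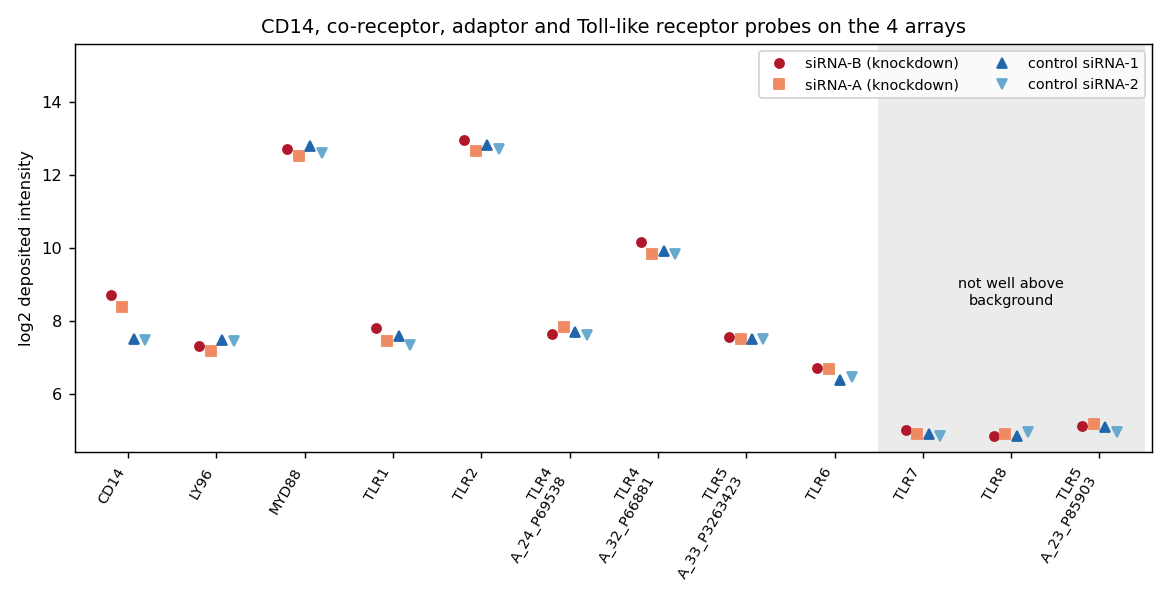
Log2 deposited intensity (y axis) of the 12 probes (x axis) on each of the 4 arrays, where each point is 1 array; levels of different probes are not comparable. CD14 stands out with 8.39 and 8.71 in knockdown against 7.47 and 7.52 in control arrays, and the 3 probes in the grey area were not well above background on any array.

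LY96 and TLR4, the receptor complex to which CD14 hands lipopolysaccharide, did not pass the test. LY96 is the small secreted protein that binds lipopolysaccharide on TLR4. Its probe A_23_P94230 (chr8:74941211-74941270) read 7.31 with siRNA-B, 7.19 with siRNA-A, 7.49 with control siRNA-1 and 7.46 with control siRNA-2. The knockdown arrays were both below the controls, and the log2 fold change was -0.22 with a 95% interval of -0.47 to 0.03 (adjusted p = 0.694 in limma). LY96 is the one gene of the 8 for which the knockdown arrays were both lower.

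TLR4, the signalling receptor for lipopolysaccharide, was measured by a pair of probes. Probe A_24_P69538 read 7.65 with siRNA-B, 7.85 with siRNA-A, 7.71 with control siRNA-1 and 7.63 with control siRNA-2. Probe A_32_P66881 read 10.17 with siRNA-B, 9.85 with siRNA-A, 9.91 with control siRNA-1 and 9.84 with control siRNA-2. Groups overlapped for both, and the array with the highest value was siRNA-A for the former and siRNA-B for the latter. The log2 fold changes were 0.08 (95% interval -0.19 to 0.35, adjusted p = 0.911 in limma) and 0.14 (95% interval -0.17 to 0.44, adjusted p = 0.858). Both intervals end below 0.75, the lower end of the interval of CD14.

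TLR2 and its partners TLR1 and TLR6 recognise bacterial lipopeptides as pairs of TLR2 with either of the others. TLR6 read 6.71 with siRNA-B, 6.69 with siRNA-A, 6.38 with control siRNA-1 and 6.46 with control siRNA-2. Knockdown arrays lay above control arrays, 1.22-fold in the mean, with a log2 fold change of 0.28 and a 95% interval of 0.03 to 0.53. TLR6 was not called (unadjusted p = 0.0306, adjusted p = 0.578 in limma). Its value was 0.27 with siRNA-A and 0.30 with siRNA-B relative to the control mean, and between 0.24 and 0.50 under the 13 other ways of processing, with a call in 0 of them.

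TLR1 and TLR2 were printed on 10 identical spots each, which shows the spread within an array. TLR1 had a mean log2 intensity of 7.81 with siRNA-B, 7.46 with siRNA-A, 7.58 with control siRNA-1 and 7.34 with control siRNA-2. The array with siRNA-B was highest and that with siRNA-A lay between the controls, and the log2 fold change was 0.18 with a 95% interval of -0.16 to 0.52 (adjusted p = 0.821 in limma). All 10 spots were higher after knockdown, by 0.03 to 0.31 with a median of 0.22, but both knockdown arrays lay above both controls in 3 of them. TLR1 was above the control mean by 0.35 with siRNA-B and by 0.01 with siRNA-A, and its log2 fold change was 0.30 when control siRNA-1 and 0.06 when control siRNA-2 was omitted. Spots of 1 array are not replicates of a treatment, so that their number does not narrow the interval.

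TLR2 (A_23_P92499, chr4:154626406-154626465) had a mean log2 intensity of 12.96 with siRNA-B, 12.67 with siRNA-A, 12.82 with control siRNA-1 and 12.72 with control siRNA-2. The knockdown arrays were the highest and the lowest of the 4. The log2 fold change was 0.04 with a 95% interval of -0.26 to 0.34 (adjusted p = 0.97 in limma), and 6 spots were higher and 4 lower after knockdown. The array with siRNA-B exceeded that with siRNA-A on 10 of 10 spots, for TLR1 by 0.14 to 0.55 and for TLR2 by 0.13 to 0.41. Control siRNA-1 likewise exceeded control siRNA-2 on all 10 spots of either gene.

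**Figure D2:**
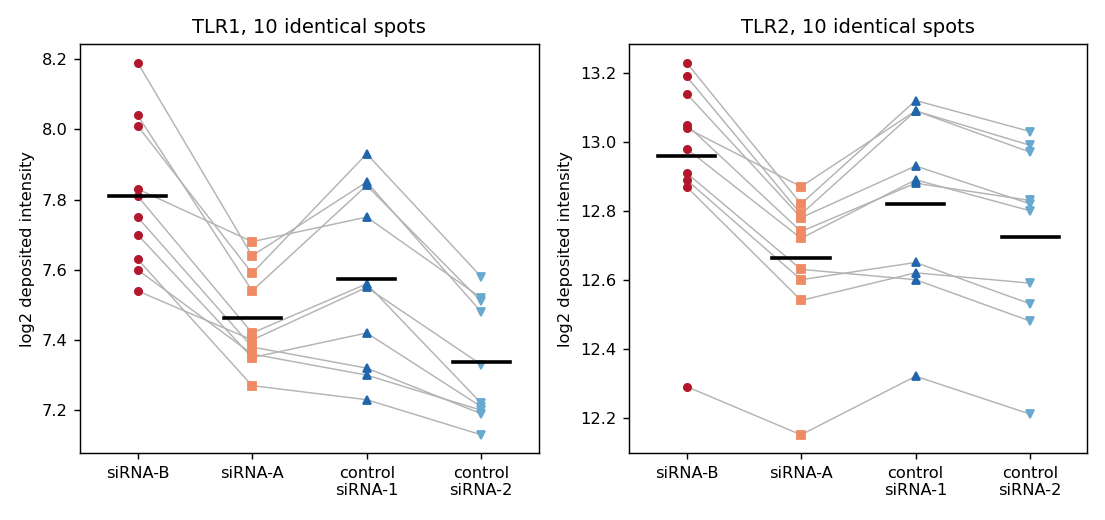
Log2 deposited intensity (y axis) of the 10 identical spots of TLR1 (left) and of TLR2 (right) on each array (x axis); grey lines join the same spot and black bars are means over the spots. In either gene siRNA-B lies above siRNA-A and control siRNA-1 above control siRNA-2 on every spot, and the mean of siRNA-A lies below that of control siRNA-1.

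TLR5 is the receptor for bacterial flagellin. Its kept probe A_33_P3263423 (chr1:223305827-223305886) read 7.57 with siRNA-B, 7.51 with siRNA-A, 7.52 with control siRNA-1 and 7.51 with control siRNA-2. The 4 arrays lay within a narrow range, and the log2 fold change was 0.03 with a 95% interval of -0.22 to 0.28 (adjusted p = 0.977 in limma). The other TLR5 probe, A_23_P85903, read between 4.95 and 5.19 and was well above background on 0 arrays.

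MYD88, the adaptor that links most of these receptors to IRAK kinases, read 12.72 with siRNA-B, 12.53 with siRNA-A, 12.79 with control siRNA-1 and 12.61 with control siRNA-2 (A_23_P362659, chr3:38183932-38183991). Groups overlapped, and the log2 fold change was -0.07 with a 95% interval of -0.36 to 0.21 (adjusted p = 0.926 in limma). The endosomal receptors for single-stranded RNA were not well above background on any array. TLR7 read between 4.86 and 5.02 and TLR8 between 4.86 and 4.95, where the lowest log2 intensity well above background was between 5.04 and 5.39 on the 4 arrays. No fold change is given for them.

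Without CD14 the 8 other probes had log2 fold changes between -0.22 and 0.28. The median of all 9 was 0.08, with 7 above and 2 below 0, where the median over all probes of the array was -0.0181. Knockdown and control arrays did not overlap for 3 of the 9 (CD14 and TLR6 above, LY96 below), which held for 36.6% of all probes. siRNA-B gave a higher value than siRNA-A in 8 of 9, the exception being a TLR4 probe, and over all probes in 61.7%. Control siRNA-1 exceeded control siRNA-2 in 8 of 9, the exception being TLR6, whereas over all probes this held for 31.3%.

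**Figure D3:**
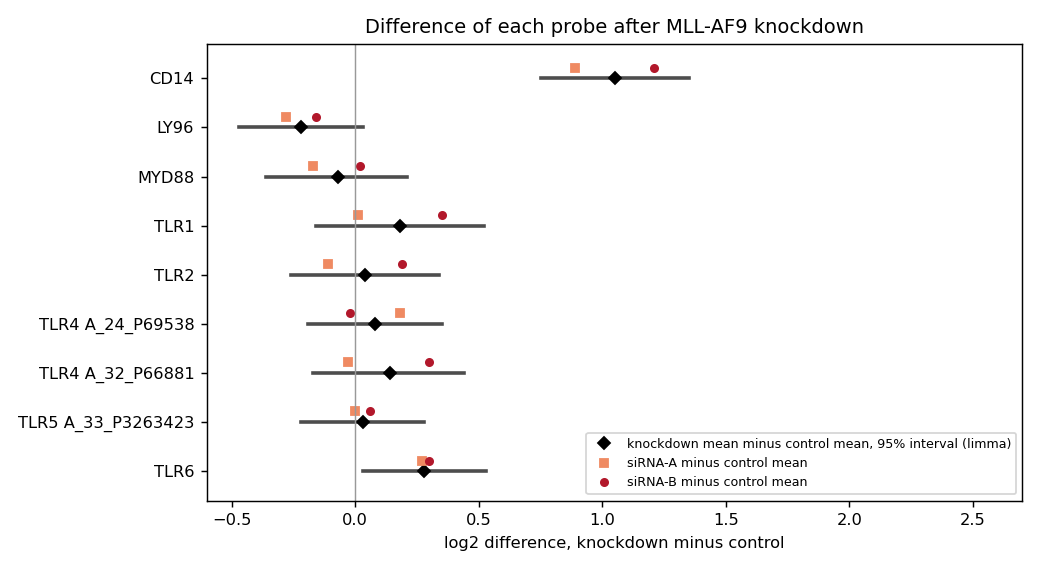
Log2 difference between knockdown and control (x axis) for each kept probe (y axis); diamonds are differences of group means with 95% intervals from limma, and squares and circles are the arrays with siRNA-A and siRNA-B minus the control mean. The interval of CD14 (0.75 to 1.35) and that of TLR6 (0.03 to 0.53) lie above 0, and the other 7 include 0.

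**Figure D4:**
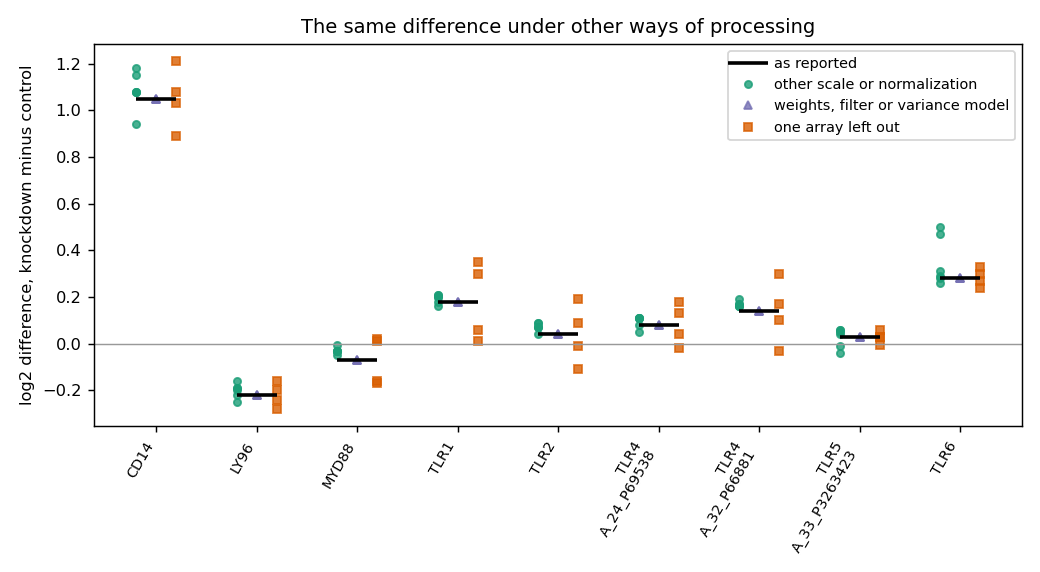
Log2 difference between knockdown and control (y axis) of each kept probe (x axis) as reported (black bars) and under the 13 other ways of processing (points, coloured by kind). CD14 stays between 0.89 and 1.21, TLR6 between 0.24 and 0.50 and LY96 between -0.28 and -0.16, while MYD88, TLR2, both TLR4 probes and TLR5 cross 0.

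Genes that act with these receptors were described by 7 lists of 136 genes, of which 125 had a kept probe; where several probes named 1 gene, the brightest was taken. Of the 125 genes, 3 were called higher (MSR1, IL8 and CCL2) and 0 lower in limma, while 11 were higher and 2 lower at an unadjusted p under 0.05. Over all 17938 genes, 0.63% were called higher and 0.702% lower, and at an unadjusted p under 0.05 3.26% were higher and 4.74% lower. In either direction these were 10.4% of the list genes and 8% of all genes. The log2 fold change was above 0 in 69 and below 0 in 56 of the 125 genes, with a median of 0.01, against 7854 above and 10084 below 0 and a median of -0.0207 over all genes.

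Of 11 partners in the recognition of lipopolysaccharide and lipids, 9 had a kept probe, 1 was called and 3 had an unadjusted p under 0.05. The median log2 fold change was 0.09, and on leaving out an array it lay between 0.03 (without control siRNA-2) and 0.33 (without siRNA-A), with 0.04 without siRNA-B and 0.22 without control siRNA-1. MSR1, a scavenger receptor of macrophages, read 5.86 with siRNA-B, 6.21 with siRNA-A, 5.46 with control siRNA-1 and 5.29 with control siRNA-2. Knockdown arrays lay above control arrays, with a log2 fold change of 0.66 (SE 0.14, unadjusted p = 0.00141, adjusted p = 0.23 in limma). The call was lost under quantile (0.65) and cyclic loess normalization (0.64), after normexp background correction combined with quantile normalization (0.42), and without siRNA-A (0.49), control siRNA-1 (0.75) or control siRNA-2 (0.57). With the background subtracted MSR1 was still called and its log2 fold change was 1.55 with and 1.52 without scaling. LBP, which carries lipopolysaccharide in serum, had the lowest log2 fold change of the list with -0.13 (adjusted p = 0.853). It was well above background on 2 arrays, and on leaving out an array its value lay between -0.25 (control siRNA-1 omitted) and -0.01 (control siRNA-2 omitted). Further, with the background subtracted it was -1.01 with and -1.04 without scaling, uncalled in both.

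Of 15 endosomal receptors and trafficking genes, 12 had a kept probe, 0 were called and 2 had an unadjusted p under 0.05 in limma, where 8% of all genes had one. TLR3 and TLR10 were not among the kept, and TLR9, the receptor for unmethylated CpG DNA, had a log2 fold change of -0.25 (adjusted p = 0.729). The extremes of the list were a pair of lysosomal proteases, CTSB with 0.42 (unadjusted p = 0.0138, 0.25 when control siRNA-2 was omitted) and CTSL1 (now CTSL) with -0.28 (unadjusted p = 0.0289). A dimmer probe of HSP90B1, not used for the list, had -0.40 (unadjusted p = 0.00886 in limma, uncalled), where its brightest probe had -0.10. Adaptors and kinases gave 0 calls among 25 genes with 2 at an unadjusted p under 0.05, and ranged from -0.17 in BTK, a tyrosine kinase, to 0.37 in IRAK2, a kinase-like partner of MYD88. A dimmer probe of TAB3 had -0.19, where its brightest probe had 0.01. Transcription factors gave 0 calls among 12 genes with 1 at that p, from -0.14 in RELA, a subunit of NF-kB, to 0.32 in IRF5, an interferon regulatory factor. Negative regulators gave 0 calls among 21 genes with 1 at that p, from -0.17 in USP4, a deubiquitinase, to 0.33 in NFKBIZ, a nuclear regulator of NF-kB. Dimmer probes of TANK (-0.26) and NFKBIB (-0.23) lay lower, where their brightest probes had 0.02 and 0.08. After background correction with normexp and quantile normalization IRAK2 (0.42) and IRF5 (0.41) were called. Some of these extremes moved with single arrays: on leaving out an array BTK lay between -0.33 (siRNA-B omitted) and -0.02 (siRNA-A omitted), IRAK2 between 0.25 and 0.50, IRF5 between 0.20 and 0.44, and NFKBIZ between 0.20 and 0.45, with the lowest value of IRF5 and NFKBIZ when siRNA-B was omitted and that of IRAK2 when control siRNA-1 was omitted.

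Inflammatory target genes held the other calls, 2 of 25 genes, both higher, with 3 at an unadjusted p under 0.05. The list median was 0.04, and it was 0.13 without siRNA-A and -0.08 without siRNA-B. With a control array left out it was -0.03 (control siRNA-1) or 0.12 (control siRNA-2). CCL2, a chemokine that attracts monocytes, read 7.12 with siRNA-B, 7.76 with siRNA-A, 6.05 with control siRNA-1 and 5.82 with control siRNA-2. Its level after knockdown was 2.83-fold that of the controls, a log2 fold change of 1.50 (SE 0.20, adjusted p = 0.0405 in limma), and in contrast to CD14 the higher array was that with siRNA-A. Signal with the background subtracted and the 75th percentile of each array set equal ended the call (2.20), as did the omission of control siRNA-1 (1.61) or of control siRNA-2 (1.39). IL8 (now CXCL8), a chemokine for neutrophils, read 8.08 with siRNA-B, 8.07 with siRNA-A, 7.34 with control siRNA-1 and 7.52 with control siRNA-2, a log2 fold change of 0.65 (SE 0.12, unadjusted p = 0.000419, adjusted p = 0.149). It was no longer called without siRNA-B (0.64), siRNA-A (0.65) or control siRNA-1 (0.55), nor with the background-subtracted signal left unscaled (0.69). CD86, a costimulatory ligand, had the lowest log2 fold change with -0.44 (-0.06 without siRNA-B and -0.81 without siRNA-A) and was not called. It read 8.32 with siRNA-B but 9.07 with siRNA-A, close to 9.02 and 9.24 in the controls.

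The 21 interferon-stimulated genes gave 0 calls in limma, with 1 gene at an unadjusted p under 0.05. The list median was -0.07, and it was 0.13 without siRNA-A and -0.20 without siRNA-B. Omitting a control array gave 0.10 (control siRNA-1) or -0.15 (control siRNA-2). IFI44L, which is induced by type I interferon, had the highest value with 0.70 (adjusted p = 0.605), which became 0.22 on omission of control siRNA-2 and 1.18 on omission of control siRNA-1, and 0.42 and 0.98 on omission of siRNA-B and of siRNA-A. It read 12.75 with siRNA-B, 12.18 with siRNA-A, 12.25 with control siRNA-1 and 11.28 with control siRNA-2, so that the controls differed more than the knockdown arrays and the groups overlapped. DDX58 (now RIGI), a cytoplasmic sensor of RNA, had the lowest with -0.23 (-0.09 on omission of siRNA-A and -0.37 on omission of siRNA-B). A dimmer DDX58 probe, not used for the list, had -0.47. Likewise a dimmer OAS3 probe had -0.44, where the brightest OAS3 probe had -0.10, and neither dimmer probe was called.

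**Figure D5:**
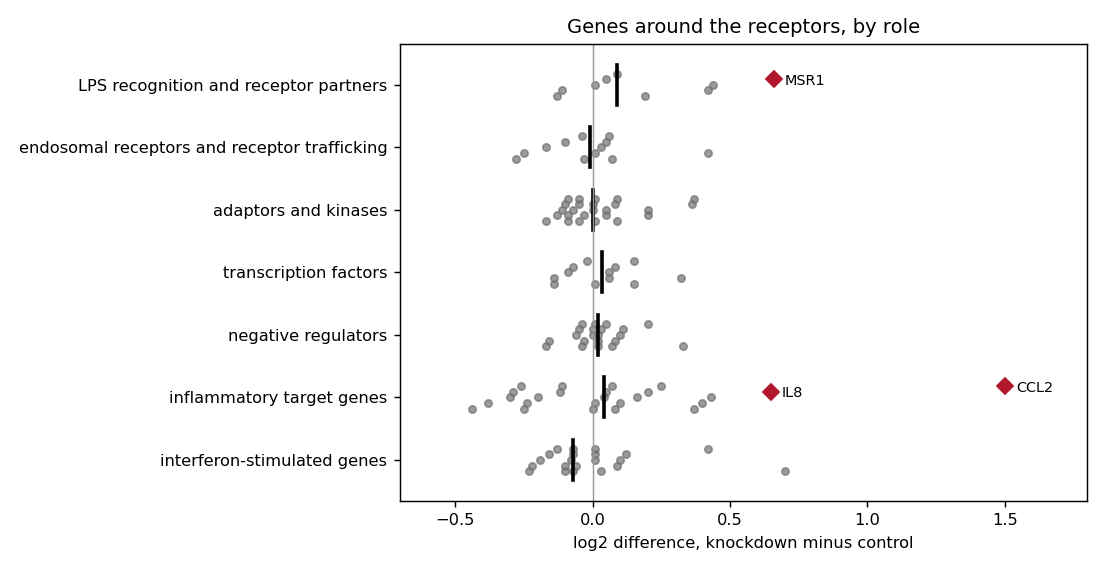
Log2 difference between knockdown and control (x axis) of 125 genes in 7 lists (y axis); each point is a gene, red diamonds are genes called at an unadjusted p under 0.005 and black bars are list medians. MSR1 (0.66), IL8 (0.65) and CCL2 (1.50) are the genes called.

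The genes whose pattern over the 4 arrays was most like that of CD14 were SGK1, FOSB, HLA-DQA1, FGL2 and SLC8A1. Likeness was the Euclidean distance between log2 intensities centred on the mean of each probe, over 20663 probes with a gene symbol that were well above background on all arrays. SGK1, a kinase induced by serum and glucocorticoids, was nearest with a distance of 0.11, reading 9.14 with siRNA-B, 8.73 with siRNA-A, 7.81 with control siRNA-1 and 7.86 with control siRNA-2. FOSB, a subunit of AP-1, followed with 0.116, and HLA-DQA1, an MHC class II chain, with 0.188. FGL2, a fibrinogen-like protein, was at 0.196 and SLC8A1, a sodium-calcium exchanger, at 0.237. Their log2 fold changes were between 0.94 and 1.15, a range near that of CD14 because the genes were chosen by likeness to it.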

How the data were processed

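Expression was measured on 4 single-colour Agilent 4x44K arrays. Per the labels and the study's methods, the authors read the spots with Agilent Feature Extraction 10.5.1.1. They deposited raw spot intensities, which were identical to the median pixel signal for 100% of spots, and a weight per spot, a quality score of 0, 0.5 or 1 whose setting is not given in the sources used here. After removal of 1377 control spots among 44495, those weighted above 0 on every array were analysed, which left 33323 spots or 26219 probes. Identical spots were averaged, and log2 intensities were fitted with these weights in limma 3.58.1 (R 4.3.3), with two-sided p. Precision is limited by 4 arrays: an exact two-sided permutation test of 2 against 2 cannot go below p = 0.333, whereas limma borrows variance across probes. The p-values measure the spread between arrays, which differ in siRNA too. The scanner's background-subtracted signal served in alternatives only. The fit was tested on simulated data.

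Genes and lists were chosen with earlier results of these data known. Named are all 10 genes with every kept probe, from each list the called genes and those with the largest rise and fall among probes well above background in a group, and the 5 probes nearest to CD14. Of the cell type markers, those detected and those not detected are named. TLR9, TLR3, TLR10, the probes of MLLT3 and MLL and the list genes with a dimmer probe described are named beyond this rule. Gene names are those of the array.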

Additional observations from a re-analysis of the deposited data

How the results depend on the processing

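Of all probes 345 were called. The number was 226 with the background-subtracted signal scaled to the 75th percentile, 31 at an adjusted p under 0.05 (0 under each of the 6 other scales and normalizations and with any array left out), and between 78 and 242 on leaving out an array. The share of calls that were higher was 44.3%, between 34.9% and 53.4% under other scales and normalizations, and 56.2% without siRNA-B, 32.3% without siRNA-A and 26.9% without control siRNA-2. The median of all probes moved by less than 0.1 in every setting. Leaving out an array gave between 0 and 1 call among the 9 probes and a CD14 log2 fold change between 0.89 and 1.21, where the call was lost without control siRNA-2 (1.03). The lists held 3 calls, against 1 at an adjusted p under 0.05 and between 0 and 3, not always of the same genes, on leaving out an array, namely 0 without control siRNA-1 and 1 without siRNA-A or control siRNA-2. Normexp with quantile normalization gave 4, IRAK2 and IRF5 among them.

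The following were called in no setting, and the sign of their log2 fold change turned. MYD88 gave 0.02 without siRNA-A, 0.01 without control siRNA-1 and a lowest value of -0.17. TLR2 gave values from -0.11 (siRNA-B omitted) to 0.19 and was at -0.01 when control siRNA-2 was omitted. The TLR4 probe A_24_P69538 lay between -0.02 and 0.18 and A_32_P66881 between -0.03 and 0.30 on leaving out an array. TLR5 gave -0.01 after scaling of the background-subtracted signal, -0.04 with that signal unscaled, and -0.00395 to 0.06 on leaving out an array. The cause was not tested. A single remaining array was taken to have the variance of the other group. No paired analysis was possible because each array measured a pool of experiments. The numbers in the sample titles name siRNAs and do not pair the arrays.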
